A study of Mus musculus with 2 samples.

Results

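A set of 10 genes of the Wnt pathway was followed: the ligand genes Wnt3a, Wnt6 and Wnt7b, the receptor and co-receptor genes Fzd5, Fzd7, Lrp5 and Lrp6, the scaffold genes Axin1 and Axin2, and the target gene Sp5. They are the 10 rows, of 19559 in the deposited table, whose symbol equals one of these names, and all 10 were found. The study sequenced RNA of mouse embryos at E3.75, where E stands for embryonic day. Females were B6CBAF1 and males were CD-1 in both groups. One group is the whole blastocyst, and the other is the inner cell mass (ICM) that immunosurgery leaves after the outer trophectoderm cells have been lysed. The whole blastocyst also contains an ICM, so each comparison sets a part against a whole. Neither group carries a named mutation or treatment, and the number of embryos pooled is not given here. There was 1 library of each kind, so there is no replicate error against which a difference could be judged, and no test of the conditions was made.

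Wnt proteins are secreted lipid-modified ligands that bind a Frizzled receptor together with the co-receptor LRP5 or LRP6. Without ligand, a complex of AXIN, APC and the kinases GSK3 and CK1 marks beta-catenin for destruction. With ligand, that complex is held at the membrane, and beta-catenin enters the nucleus and joins TCF/LEF factors on target genes, among them genes of the pathway's own inhibitors such as Axin2. In mouse embryonic stem cells, which derive from the ICM, Wnt signalling is known for supporting self-renewal.

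Levels are given as RPKM, reads per kilobase of a gene's counted length, scaled to a library total. Intervals are 95% intervals of counting error alone, and, as the cDNA was amplified without molecular identifiers, reads are not independent molecules. Reads on the listed genes summed to 9271198 for whole blastocysts and to 4125479 for the ICM. A read count that gives the same RPKM is 1.19 times higher in the whole blastocyst than in the ICM. Differences are log2((ICM RPKM + 1)/(whole-blastocyst RPKM + 1)), a scale that understates the change of low genes, and at least 2-fold higher or lower means past 1 or -1 on it. They were computed over the 8981 genes, of 19559, that reached an RPKM of 1 in either library. Over the 3013 genes that reached an RPKM of 5 in each library the median difference was -0.66, and values set relative to that shift are called centred. A centred ratio applies the same shift to the plain RPKM ratio, without the added 1, so it can differ from the centred difference.

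The marker lists bear on what the 2 libraries held. All 10 trophectoderm markers had whole-blastocyst reads and 9 were at least 2-fold lower in the ICM, where their summed RPKM was 164.0 against 1920 and Elf5 was at 0. Krt18 led the whole-blastocyst sum (RPKM 1418 in whole blastocysts and 29.4 in the ICM), and Fgfr2 the ICM sum (184.6 and 109.4). All 8 epiblast markers were measured, 6 at least 2-fold higher in the ICM, with a summed RPKM of 41.9 in whole blastocysts and 243.1 in the ICM. Of 8 primitive endoderm markers 4 were at least 2-fold higher and 1, Dab2, lower, with sums of 94.3 and 124.0. Dab2 (RPKM 59.6 and 2.79) and Gata6 (31.2 and 22.7) led the whole-blastocyst sum, and Pdgfra (2.29 and 68.1) the ICM sum. Foxa2 had no read in either library. Of 9 markers of cumulus and uterine cells 4 reached an RPKM of 1 (sums 44.1 and 3.88). Cyp11a1 (324 and 0 reads) and Wfdc2 (158 and 7) led the whole-blastocyst sum, and Cyp19a1 (0 and 91 reads) the ICM sum. Of 6 fibroblast markers 2 reached it, Vim and Thy1 (sums 0.57 and 29.1), while Col1a1 and Dcn were at 0. None of the 5 measured blood markers did (sums 0.10 and 0.086). Their part in the results below was not tested. In such bulk samples, fewer cells of a type and less RNA per cell cannot be told apart. Nor can they be told apart from differences between the 2 libraries in embryos, handling or amplification.

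Across the members, Wnt3a, Wnt7b and both co-receptor genes were low in the ICM library, Fzd7 and Axin2 were high, and Sp5 was not detectable beyond a single read. Of the 10 members, 9 passed the filter. Axin2 and Fzd7 were higher in the ICM by 2-fold or more, as were 8.96% of the 8981 genes. Wnt3a, Wnt7b, Lrp5 and Lrp6 were at least 2-fold lower, as were 44.0% of all genes, so a share of 4 in 9 is near that background. Fzd5, Wnt6 and Axin1 were within 2-fold. Centred, 3 members were higher (Fzd5 joining, against 16.9% of all genes), 3 were lower (Lrp6 leaving, against 20.5%) and 3 were within 2-fold. The median difference was -0.69 over the 9 members and -0.84 over all genes. Of the 9, 5 passed through the whole blastocyst alone, so a lower ICM level was built into their passing it.

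**Figure D1:**
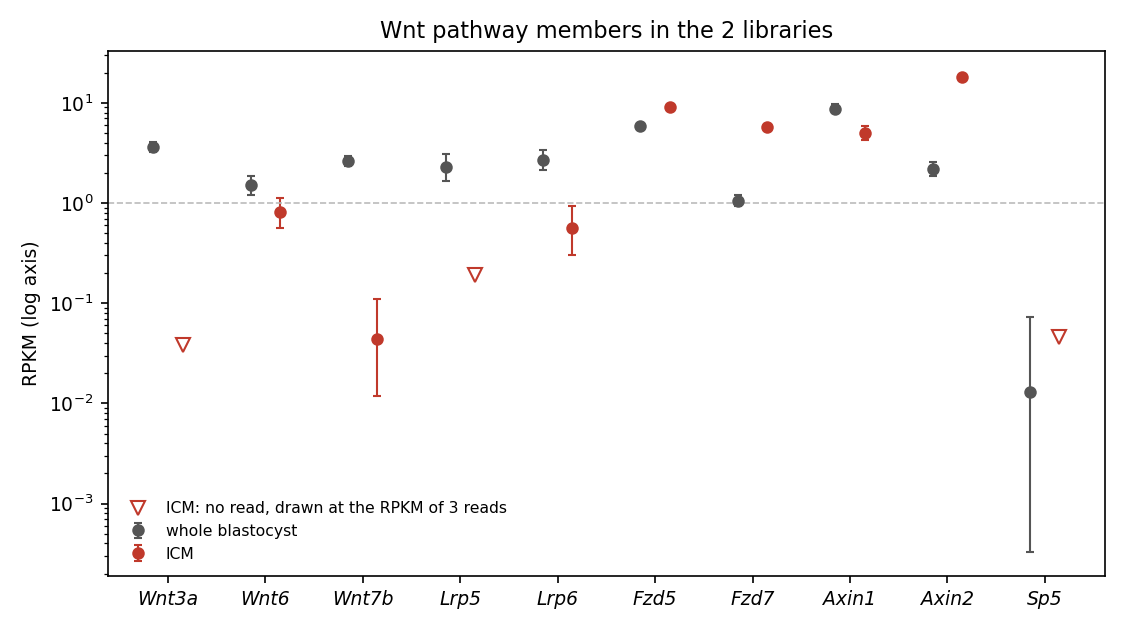
RPKM (log axis) of the 10 members in the whole-blastocyst library (grey) and the ICM library (red), with bars for the 95% Poisson interval of the read count, a dashed line at an RPKM of 1, and open triangles for genes without an ICM read, drawn at the RPKM of 3 reads. Fzd5, Fzd7 and Axin2 are higher in the ICM, while the ligand and LRP genes lie below their whole-blastocyst values, Wnt7b at 0.043 against 2.61.

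The ligand genes differed in how much was left in the ICM. Wnt3a, a ligand that activates the beta-catenin branch, had 337 reads in the whole blastocyst (RPKM 3.63, 3.25 to 4.03) and 0 in the ICM. At an equal RPKM the ICM library would have held 284 reads. Against a floor of 3 ICM reads, which ignores the error of the whole-blastocyst count, Wnt3a was at least 94.6-fold lower in the ICM. Its difference of -2.21 was lower than that of 90.0% of all genes.

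Wnt7b, a ligand of another subfamily, had 285 reads in the whole blastocyst (RPKM 2.61) and 4 in the ICM (0.043, 0.012 to 0.11). It was 60.0-fold lower in the ICM, with a wide interval of 23.2 to 222 because it rests on those 4 reads. Wnt6 had 80 reads in the whole blastocyst (RPKM 1.51, 1.19 to 1.88) and 36 in the ICM (0.805, 0.563 to 1.11). Its ratio of ICM to whole blastocyst was 0.534 (0.350 to 0.801), and 0.843 when centred, while its centred difference was 0.18. It thus stood near the median of the abundant genes used for centring, and its difference was above that of 63.1% of all genes. Wnt6 was thus the member ligand with the most ICM reads.

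Because any factor that acts on a whole library cancels between 2 genes, pairs within a family can be compared without a choice of scaling. From whole blastocyst to ICM, the ratio of Wnt6 to Wnt7b reads was 32.1 times higher (10.9 to 126). By RPKM, Wnt6 was 36.6% of the sum of this pair in whole blastocysts and 94.9% in the ICM. Between Wnt7b and Wnt3a no such shift was detectable at this depth, since with 4 and 0 ICM reads the lower limit of the same quantity was 0.773.

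Among the other ligand genes 2 passed the filter, Wnt9a and Wnt2b. Of 19 Wnt genes, 5 reached an RPKM of 1, of which 3 were at least 2-fold lower in the ICM, none higher and 2 within 2-fold (3 lower and 1 higher when centred). Among all genes 44.0% were lower, and when centred 20.5% were lower and 16.9% higher. Through the whole blastocyst alone passed 4 of the 5, so a lower ICM level was built into their passing. Like Wnt3a, Wnt9a was without ICM reads, with 294 reads in whole blastocysts and 0 in the ICM, at least 82.6-fold lower. Wnt2b had 86 and 135 reads, a ratio of 1.86 (1.41 to 2.47), and was the ligand with the highest RPKM of the ICM, 1.49. Summed over the 19 genes, ligand RPKM was 11.5 in whole blastocysts and 2.72 in the ICM. Wls, listed under its older symbol Gpr177, encodes the carrier that takes Wnt proteins to the cell surface. It had 147 reads in the whole blastocyst (RPKM 3.95) and 0 in the ICM, at least 41.3-fold lower. Porcn, the acyltransferase that adds the lipid, had only 1 and 11 reads.

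Both member Frizzled genes had a higher RPKM in the ICM. Fzd5 encodes a receptor and had 1650 reads in the whole blastocyst (RPKM 5.82, 5.55 to 6.11) and 2186 in the ICM (9.16, 8.78 to 9.55). The ICM level was 1.57-fold higher (1.47 to 1.68) as deposited and 2.48-fold when centred. GENCODE annotates Gm38058 on the opposite strand over the last exon of Fzd5, and whether counting used strand is not known here, so this value is uncertain.

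Fzd7 had 229 reads in the whole blastocyst (RPKM 1.06, 0.926 to 1.20) and 1043 in the ICM (5.72, 5.38 to 6.08). The ICM level was 5.41-fold higher (4.68 to 6.27), a difference of 1.71 above that of 96.8% of all genes. The ratio of Fzd7 to Fzd5 reads was 3.44 times higher in the ICM (2.93 to 4.04). By RPKM, Fzd7 was 15.4% of this pair in whole blastocysts and 38.4% in the ICM, so the ICM excess was uneven between these 2 genes.

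Of the 10 Frizzled genes 4 reached an RPKM of 1 in either library, as did 8981 of all 19559 genes, and the other 2 were Fzd4 and Fzd3. Fzd4 went beyond Fzd7, with 7 reads in the whole blastocyst (RPKM 0.051) and 563 in the ICM (4.82), 95.5-fold higher (46.0 to 239). Whether removal of the trophectoderm alone could give a ratio of this size was not tested. Relative to Fzd5 its reads were 60.7 times higher in the ICM (29.1 to 152). Fzd3 was on the other side, at 594 and 88 reads and 5.69-fold lower (4.54 to 7.20). The remaining Frizzled genes had at most 6 reads in a library.

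Both co-receptor genes were low in the ICM, and both passed the filter through the whole blastocyst alone. The difference of Lrp5 (-1.73) was lower than that of 81.2% of all genes, and the difference of Lrp6 (-1.25) lower than that of 66.4%. Lrp5 had 43 reads in the whole blastocyst (RPKM 2.31, 1.67 to 3.11) and 0 in the ICM, at least 12.1-fold lower. At an equal RPKM 36.2 ICM reads would have been found. Lrp6 had 81 reads in the whole blastocyst (RPKM 2.71, 2.16 to 3.37) and 14 in the ICM (0.557, 0.304 to 0.934). It was 4.87-fold lower (2.74 to 9.31), and its ratio of 0.205 became 0.324 when centred, still past 2-fold as a plain ratio. Its centred difference of -0.60, on the scale with 1 added to each RPKM, is within 2-fold. These 2 genes rest on few reads: the length behind their RPKM was 414 bases for Lrp5 and 663 for Lrp6, out of longest annotated transcripts of 8893 and 9368 bases. Ryk, a further Wnt receptor with a kinase-like domain, was also lower, at 629 and 121 reads (4.38-fold, 3.60 to 5.37). Ror1 and Ror2 had no read in either library.

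**Figure D2:**
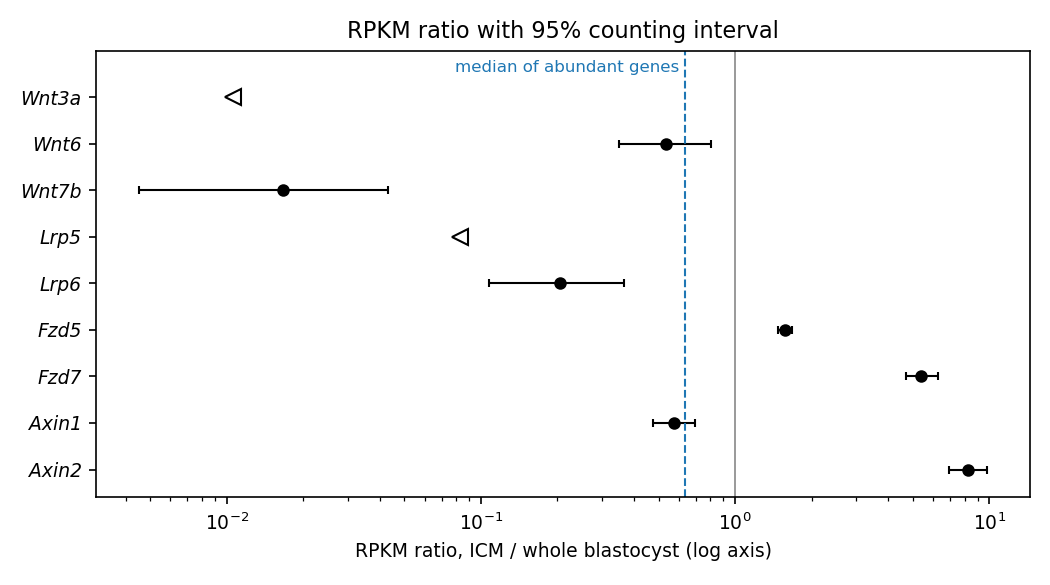
Ratio of ICM RPKM to whole-blastocyst RPKM (log axis) of the 9 members that passed the filter, with 95% counting intervals; open triangles mark genes without an ICM read at the upper bound given by 3 reads. The grey line is equality and the dashed line lies at the median difference of -0.66 (log2). Wnt6 and Axin1 straddle the dashed line, Fzd5, Fzd7 and Axin2 lie to the right of equality, and the rest lie to the left of both.

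The Axin genes, which encode alternative scaffolds of the destruction complex, went separate ways. Axin1 is the broadly expressed form, and it had 344 reads in the whole blastocyst (RPKM 8.72, 7.83 to 9.70) and 167 in the ICM (5.03, 4.29 to 5.85). Its ratio was 0.576 (0.476 to 0.695) and its centred difference -0.03, so it stood at the median of the abundant genes used for centring. Among all genes its difference was above that of 55.5%. Axin2, the form whose gene is itself a target of the pathway, had 149 reads in the whole blastocyst (RPKM 2.19, 1.85 to 2.57) and 1031 in the ICM (17.98, 16.9 to 19.1). The intervals of the 2 libraries are far apart, and the difference of 2.57 exceeded that of 98.9% of all genes.

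Relative to Axin1, Axin2 reads were 14.3 times higher in the ICM (11.0 to 18.5), a comparison that no scaling of the libraries alters. By RPKM, Axin2 was 20.1% of the sum of the pair in whole blastocysts and 78.2% in the ICM. The form with more RPKM was therefore Axin1 in the whole blastocyst and Axin2 in the ICM.

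Sp5 encodes a zinc finger repressor and is, like Axin2, a widely used readout of beta-catenin activity. It had 1 read in the whole blastocyst (RPKM 0.013, up to 0.073) and 0 in the ICM, where 3 reads would be an RPKM of 0.046. It did not pass the filter, and no fold is given, since both values are at or under the floor. Levels of Axin2 and Sp5 in the ICM library were thus far apart although both are known targets.

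Promoters are shown for the 2 target genes and for Fzd7, the other member at least 2-fold higher in the ICM. Fzd7 is not on the list of beta-catenin targets used here. RefSeq promoters (build GRCm38.p6, from 250 bases before to 50 after the gene start) were found for 6 of the 10 members: Axin2, Fzd5, Fzd7, Sp5, Wnt3a and Wnt6. Entries for Axin1, Lrp5, Lrp6 and Wnt7b were not found. They were searched on both strands for the core of the TCF/LEF motif, CTTTG followed directly by AA, AT, TA or TT. Capitals mark each match, and on the opposite strand the match reads as its reverse complement. The windows are Axin2 at chr11:108920099-108920398 (plus strand), Fzd7 at chr1:59481897-59482196 (plus strand) and Sp5 at chr2:70474673-70474972 (plus strand), printed 5′ to 3′.
Axin2: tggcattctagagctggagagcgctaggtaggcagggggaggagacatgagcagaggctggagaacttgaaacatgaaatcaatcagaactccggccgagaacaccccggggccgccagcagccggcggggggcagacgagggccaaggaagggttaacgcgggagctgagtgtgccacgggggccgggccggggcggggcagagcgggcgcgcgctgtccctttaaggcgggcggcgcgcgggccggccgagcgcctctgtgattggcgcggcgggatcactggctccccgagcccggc
Fzd7: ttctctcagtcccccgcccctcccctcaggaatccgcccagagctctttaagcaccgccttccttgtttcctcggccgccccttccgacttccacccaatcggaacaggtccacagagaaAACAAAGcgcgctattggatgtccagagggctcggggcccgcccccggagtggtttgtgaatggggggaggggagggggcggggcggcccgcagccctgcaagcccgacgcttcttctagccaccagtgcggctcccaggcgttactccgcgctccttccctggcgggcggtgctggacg
Sp5: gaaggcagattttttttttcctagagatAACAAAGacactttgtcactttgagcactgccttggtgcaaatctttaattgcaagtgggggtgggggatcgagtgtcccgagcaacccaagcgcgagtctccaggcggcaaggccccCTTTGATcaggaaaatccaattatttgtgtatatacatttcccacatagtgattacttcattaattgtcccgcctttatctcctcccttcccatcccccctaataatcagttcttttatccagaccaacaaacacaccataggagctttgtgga

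The Sp5 window held 2 matches, from -222 to -216 on the opposite strand and from -104 to -98 on the same strand as the gene, counted from its start. Fzd7 held 1, from -130 to -124 on the opposite strand. Axin2, Fzd5, Wnt3a and Wnt6 held none in these 300 bases. Over all 32851 RefSeq promoters of the same length, 16.9% held at least 1 match and 1.94% at least 2. Of 71 pathway genes with such an entry, 12 held a match in at least 1 promoter. That is a count of genes, some with several promoters, and is not comparable with the shares of single promoters. The Sp5 window had 45% G and C and the other 5 from 66.7% to 86.3%, and such base composition affects how often an A- and T-rich motif is met. A match is a description of letters and says nothing of binding, and the absence of one holds for this window alone.

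Other commonly cited targets of beta-catenin were measured in part. Of 15 on the list, 5 reached an RPKM of 1, of which 3 were higher in the ICM by 2-fold or more, none lower and 2 within 2-fold, the same when centred. The 3 were Axin2, Znrf3 and Dkk1, and over all genes 8.96% were higher, or 16.9% when centred. Znrf3 and Dkk1 passed the filter through the ICM alone. Znrf3, a ubiquitin ligase that removes Frizzled receptors, had 83 reads in the whole blastocyst (RPKM 0.537) and 356 in the ICM (2.74), 5.09-fold higher (3.999 to 6.55). Dkk1, a secreted protein that blocks LRP5 and LRP6, had 14 and 115 reads and was 9.75-fold higher (5.58 to 18.4). Myc and Ccnd1, which many pathways regulate, were within 2-fold on the scale of differences, at RPKM 5.23 and 2.49 for Myc and 1.001 and 0.817 for Ccnd1. By plain RPKM Myc was 2.10-fold lower in the ICM (1.65 to 2.69). LTO1 lies on the opposite strand over the last exon of Ccnd1. Lef1, Nkd1, T, Rnf43 and Notum had no read in either library, and Lgr5, Cdx1 and Nkd2 had none in the whole blastocyst and at most 21 in the ICM.

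Of 15 genes on the list of secreted antagonists and their partners 2 passed the filter, Dkk1 and Sfrp1, as did 8981 of all 19559 genes. Both were past 2-fold on the ICM side, as were 8.96% of all genes. Sfrp1, a secreted Frizzled-related protein, had 230 reads in the whole blastocyst (RPKM 1.47) and 857 in the ICM (6.52), 4.42-fold higher (3.82 to 5.14). Below the filter, Kremen1, a membrane protein that acts with DKK proteins, had 57 and 9 reads and was 5.34-fold lower by RPKM (2.62 to 12.3). Of the 9 genes for R-spondins, their LGR receptors and receptor turnover, 2 passed. Besides Znrf3 that was Lgr4, a receptor for R-spondins, with 388 and 100 reads and 3.27-fold lower (2.62 to 4.11), a centred difference of -0.38.

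The intracellular cascade was well represented in both libraries, with a summed RPKM of 558.2 and 385.8 over its list. Of 14 measured genes for Dishevelled proteins and the destruction complex 12 passed the filter, 11 of them in both libraries. Of these 12, 1 was at least 2-fold higher (Axin2), 5 lower and 6 within 2-fold (1, 2 and 9 when centred). Among all genes 8.96% were higher and 44.0% lower (16.9% and 20.5% when centred), so 5 lower of 12 is near that background. Ctnnb1, the gene of beta-catenin, had RPKM 352.1 in whole blastocysts and 290.5 in the ICM (ratio 0.825, 0.807 to 0.843), although Ulk4 lies on the opposite strand over its last exon. Gsk3b, a kinase of the complex, had 85.2 and 23.7 and was 3.59-fold lower (3.48 to 3.70). Gsk3a, its paralogue, had 122 and 28 reads and was 3.67-fold lower (2.42 to 5.75), and 9130221H12Rik lies on the other strand over its last exon. Csnk1a1, which encodes a CK1 kinase, was at 45.6 and 15.8 and Apc at 16.2 and 8.65. Within 2-fold were also Btrc (3.68 and 2.81), part of the ligase that ubiquitinates beta-catenin, and Tnks (6.02 and 5.44), whose product targets AXIN for degradation. Amer1, listed as Fam123b, had 16 and 83 reads and did not pass the filter.

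Dvl1, Dvl2 and Dvl3 encode the adaptors that link Frizzled to AXIN. Dvl3 was the most abundant by RPKM, at 24.9 in whole blastocysts and 8.86 in the ICM, and Dvl2 was at 7.07 and 5.57. Dvl1 had 149 and 2 reads and was 62.8-fold lower, with an interval of 17.1 to 523, and its last exon overlaps Tas1r3 on the other strand.

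Of 12 measured TCF/LEF factors and nuclear partners 8 passed the filter, and 4 were at least 2-fold lower in the ICM, none higher and 4 within 2-fold (2 lower and 1 higher when centred). That lower share is near the 44.0% of all genes that were lower. When centred, 20.5% of all genes were lower and 16.9% higher. Among the measured TCF/LEF genes, Tcf7l2 had the most reads, at 243 and 128 (RPKM 2.43 and 1.52). Tcf7 had 25 and 17 reads. Tcf7l1 could not be matched to a row by its current symbol or an unambiguous older one, so this ranking leaves it out. The lower genes were the co-repressors Tle4 (RPKM 32.2 and 6.96, 4.62-fold lower, 4.18 to 5.11) and Tle3 (4.48-fold lower, 3.59 to 5.64), Ctnnbip1, an inhibitor of beta-catenin (7.39-fold lower, 5.59 to 9.92), and Pygo1 (81 and 0 reads). Gm13066 lies on the opposite strand over the last exon of Ctnnbip1. Tle1 was 2.35-fold higher by RPKM (1.66 to 3.37), a difference of 0.71. The beta-catenin partners Bcl9l (230 and 71 reads) and Pygo2 (275 and 193 reads) had differences of -0.93 and -0.18.

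**Figure D3:**
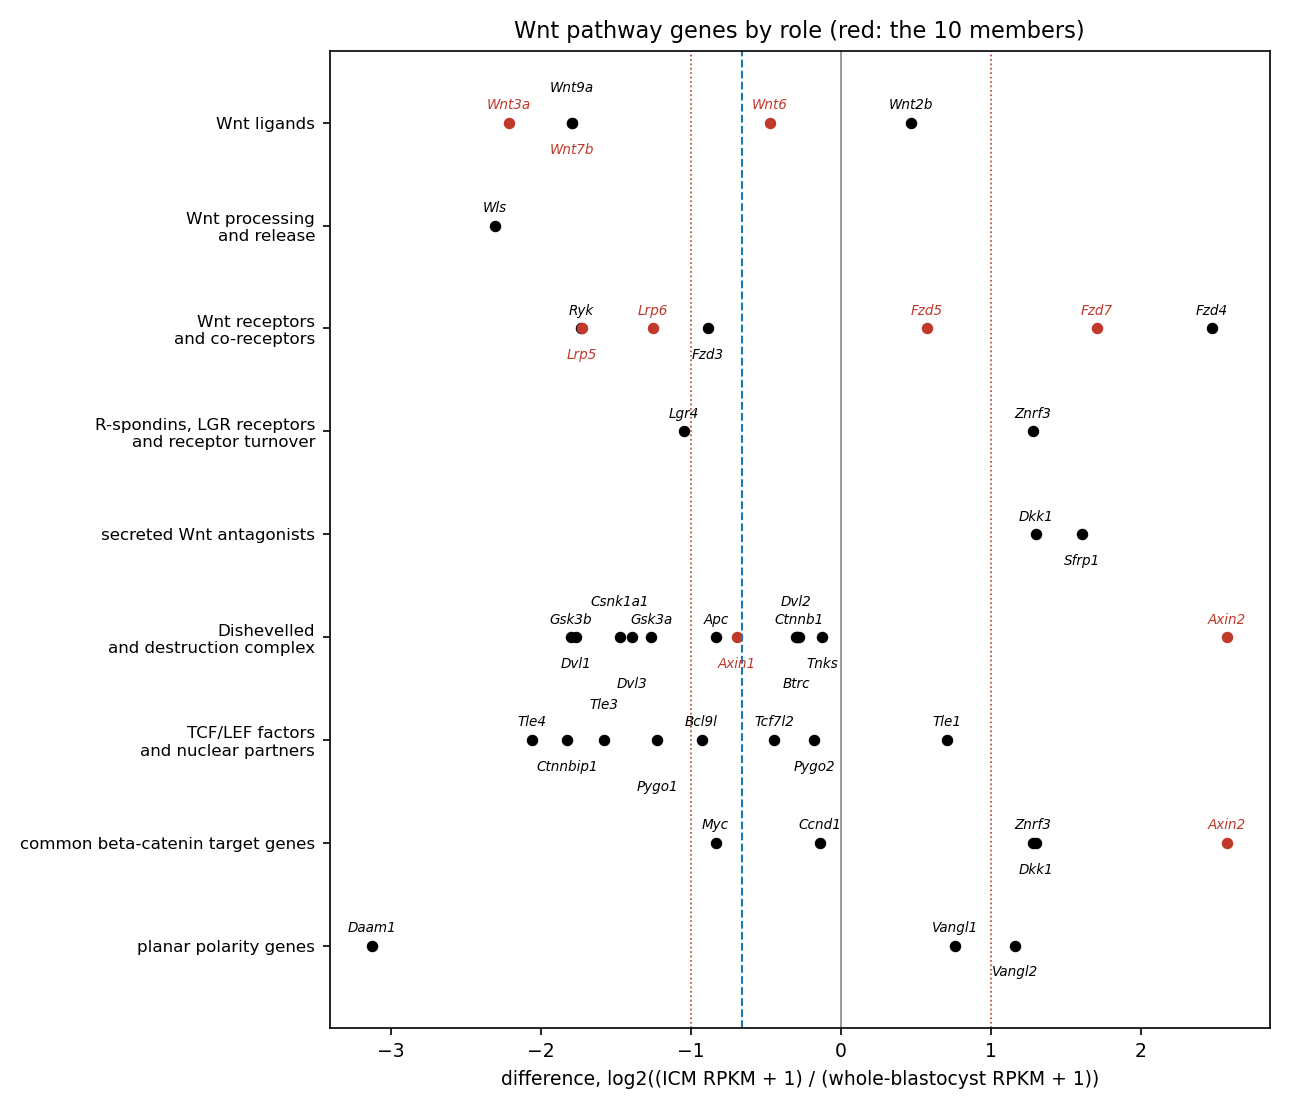
Difference between the libraries on the log2(RPKM + 1) scale for each Wnt pathway gene that passed the filter, in a row for each role, with the members in red; a gene of 2 lists is drawn in both rows. Dotted lines mark 2-fold, and the dashed line the median of -0.66. Fzd4, Fzd7, Znrf3, Dkk1, Sfrp1, Axin2 and Vangl2 lie to the right of 1.

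Over all lists together, 103 pathway genes were in the table and 42 passed the filter. Of these 7 were higher in the ICM by 2-fold or more, 18 lower and 17 within 2-fold, which is 11, 11 and 20 when centred. Over all genes 8.96% were higher and 44.0% lower, or 16.9% and 20.5% when centred, so the lower share as deposited is near the background. Their median difference was -0.83, and that of all genes was -0.84. The 7 higher genes were Axin2, Fzd4, Fzd7, Znrf3, Dkk1, Sfrp1 and Vangl2. Of the 42, 13 passed the filter through the whole blastocyst alone and 6 through the ICM alone, so the side of their difference was built into their passing. Fzd4, Znrf3, Dkk1 and Vangl2 are among those that passed through the ICM alone.

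**Figure D4:**
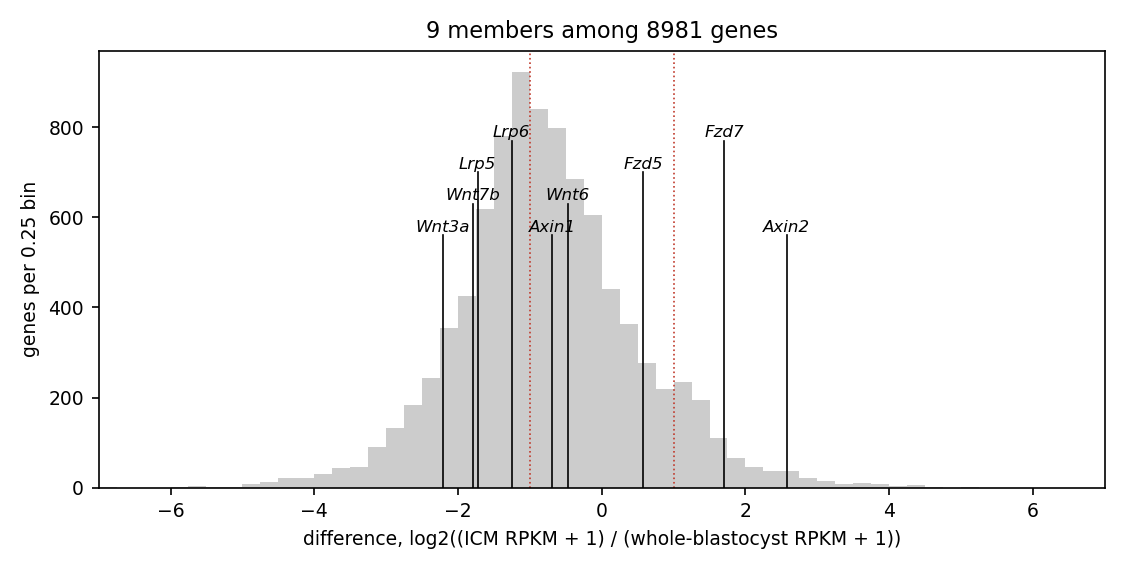
Number of genes in each bin of 0.25 of the difference (log2((ICM RPKM + 1)/(whole-blastocyst RPKM + 1))) for all 8981 genes, with the 9 members that passed the filter drawn as lines. Dotted lines mark 2-fold. Axin2 and Fzd7 stand in the upper tail, at 2.57 and 1.71, and the low members stand within the broad lower side of the distribution.

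The order of the members changed between the libraries. Levels of different genes can be set side by side only per length, and the length behind the deposited RPKM matched an annotated last exon for 52.9% of the genes compared. In the whole blastocyst Axin1 was highest, followed by Fzd5 and Wnt3a, each above the next beyond counting error. Lrp6, Wnt7b, Lrp5 and Axin2 followed, between RPKM 2.71 and 2.19, and neighbours among these 4 did not differ beyond it. Wnt6, Fzd7 and Sp5 came last. In the ICM Axin2 was highest, 1.96 times the next, Fzd5 (1.82 to 2.12). Fzd7 and Axin1, at 5.72 and 5.03, did not differ beyond counting error (ratio 1.14, 0.966 to 1.35), nor did Wnt6 and Lrp6 (1.44, 0.760 to 2.90). Wnt7b was lower than Lrp6, and Wnt3a, Lrp5 and Sp5 were listed at 0.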

How the data were processed

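PicoPure-extracted RNA was reverse transcribed and amplified (NuGEN Ovation) and built into SOLiD fragment libraries, per the labels' protocols. The authors deposited whole-number read counts and RPKM values per gene for both libraries. Build mm9 was used, per the submitters' processing notes; the aligner, annotation, strand setting and treatment of multiply mapping reads are not given in the sources consulted. Which samples the columns hold was read from the titles.

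The ratio of reads to RPKM was compared with exon lengths of GENCODE M21. Of 8142 genes with 20 or more whole-blastocyst reads, 52.9% fell within 0.2% of the length of an annotated last exon, 1.22% of a whole transcript and 1.03% of a first exon, at totals behind RPKM of 45000000 and 37900000 reads. The listed reads were 20.6% of that total for whole blastocysts and 10.9% for the ICM. The whole-blastocyst total was itself fitted to last exon lengths, which tilts the comparison of exon lengths toward last exons. Lengths behind RPKM given here also follow from that total. For the genes that matched a last exon, parts of the gene outside it may not have been counted. For the others the counted length is not settled.

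Ratios carry exact conditional (Clopper-Pearson) intervals from the read counts, levels exact Poisson intervals, and pairs of genes the conditional odds ratio (scipy 1.17.1, Python 3.11.15). The ratio and pair intervals were tested on simulated data. Those reads were drawn independently, as the intervals assume, so the outcome cannot show how they hold for amplified reads. For ratios only genes with 50 or more whole-blastocyst reads were simulated. A pseudocount of 1 was used for differences. Alternatives were pseudocounts of 0.1 and 5, no filter or a filter at RPKM 5, centring, TPM, scaling to listed gene reads and quantile normalization. All members are named, and of the other pathway genes those with 50 or more reads in a library and the farthest 4 of each list; others were named after their values were seen. The members and lists were chosen with earlier results of these data known. A planned protein comparison was not made, and 4 listed pathway symbols could not be matched to a row. An older symbol was accepted only where no other gene now carries it.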

Additional observations from a re-analysis of the deposited data

How the results depend on the processing

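With 1 library per group, replicate error could not be estimated, and depth limits the genes with few ICM reads (Wnt3a, Wnt7b, Lrp5, Lrp6 and Sp5). No paired analysis was possible because each group has 1 library. Over 6 alternatives, Axin2 stayed at least 2-fold higher in the ICM (1.68 to 3.89), whereas Fzd7 (0.82 to 3.19), Wnt3a (-5.22 to -0.79), Wnt7b (-4.24 to -0.59) and Lrp5 (-4.59 to -0.55) kept their sign and came within 2-fold at a pseudocount of 5. Lrp6 (-2.10 to -0.47) kept its sign and was within 2-fold in 4 of 6. Fzd5 (0.39 to 1.58) was past 2-fold under centring, TPM, scaling to listed reads and quantile normalization. Wnt6 (-0.83 to 0.18) and Axin1 (-0.78 to 0.16) changed sign and stayed within 2-fold. A pseudocount of 5 left 1 member higher and 0 lower, and 1 and 6 pathway genes. Over all genes 2.46% were then higher and 19.6% lower. A filter at RPKM 5 left 0 members lower, and 3 pathway genes higher and 7 lower, because fewer genes were tested. Of all genes past that filter 6.80% were higher and 48.7% lower. Centring, TPM, scaling to listed reads and quantile normalization each gave 11 pathway genes higher, with 11, 14, 11 and 9 lower. In the same order, 16.9%, 22.0%, 19.1% and 18.7% of all genes were higher, and 20.5%, 29.5%, 25.7% and 21.1% lower.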

Other observations

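Genes of the planar polarity branch, in which Frizzled and Dishevelled act without beta-catenin, lay on both sides. Of 9 measured genes 3 passed the filter. Daam1, a formin that binds Dishevelled, had 2417 reads in the whole blastocyst (RPKM 19.98) and 144 in the ICM (1.41), 14.1-fold lower (11.9 to 16.8), and its difference of -3.12 was lower than that of 97.4% of all genes. Vangl1, a membrane protein of the branch, had 35 and 58 reads and a ratio of 1.97 (1.27 to 3.08). Its paralogue Vangl2 had 0 reads in whole blastocysts and 23 in the ICM, at least 9.10-fold higher against a floor of 3 reads. Below the filter, Prickle1 (18 and 57 reads) and Prickle2 (95 and 11 reads), which encode cytoplasmic partners of VANGL proteins, had ratios of 3.76 (2.18 to 6.79) and 0.137 (0.066 to 0.257).

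The length behind RPKM differs sharply between the members and sets how many reads a given level yields. It was 6300 bases for Fzd5 and 4811 for Fzd7, 2427 for Wnt7b, 2066 for Wnt3a, 1703 for Sp5, 1513 for Axin2, 1181 for Wnt6 and 877 for Axin1, compared with 663 for Lrp6 and 414 for Lrp5. For Axin1 it equals an annotated last exon of 877 bases, and for Axin2 that exon has 1515. For Lrp5 and Lrp6 the nearest annotated last exons have 456 and 598 bases. For Fzd7 the nearest has 4532, which is also the length of its longest annotated transcript. The exon model behind the values of these genes is thus less clear. The same holds for other pathway genes, among them Fzd4 (3080 bases against 6103), Wls (828 against 653) and Pygo1 (1348 against 7514). Over 4097 genes whose length matched a last exon, the slope of log2 reads in the whole blastocyst was 0.52 on the log2 length of that exon and 0.073 on that of the rest of the longest transcript, as a description across genes.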
